A study of Mus musculus with 22 samples.

Results

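A set of 9 genes of iron handling was followed in inguinal white adipose tissue (IWAT) of lean and obese mice with a breast tumor on one side: the metalloreductase genes Steap1, Steap2, Steap3 and Steap4, the transferrin receptor gene Tfrc, the ferritin genes Fth1 and Ftl1, the heme oxygenase gene Hmox1 and the iron exporter gene Slc40a1. They were chosen by symbol with earlier results of these data known, and Steap1 led the choice because of its large rise in obese tumor-associated IWAT. All 9 were among the 23420 symbols of the deposited count table, and all 9 were among the 14458 genes that passed the filter on low counts, Steap1 only through obese tumor-associated IWAT. Since Steap1 was selected on its values in obese tumor-associated IWAT, its levels there are a description, and it was tested in lean mice only. The other 8 genes were tested in every comparison.

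RNA from 22 IWAT samples of 11 wildtype female C57Bl/6 mice was sequenced. Of these mice 5 were kept lean on chow and 6 made obese on a high fat diet (HFD) for 16 weeks. The mice were about 20 weeks old at injection. In every mouse the left pad received E0771 cells, a mouse breast cancer line from the same strain, in PBS with Matrigel, and the right pad received PBS with Matrigel alone. Both pads were collected 2 weeks later as tumor-associated and control IWAT, so that Matrigel and the injection were shared by all 4 groups. The study used 1 tumor line, discarded the sheet of fat that covered the tumor and took out the inguinal lymph node. Mice are named by the numbers in the sample labels, and a lean and an obese mouse with the same number are different animals.

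Cells take up ferric iron bound to transferrin through the transferrin receptor, and inside the endosome STEAP proteins use electrons from NADPH to reduce it to the ferrous form that transporters can carry. STEAP3 is the main ferrireductase of red cell precursors, STEAP4 is abundant in adipocytes, and STEAP2 reduces both iron and copper, whereas STEAP1 lacks the NADPH-binding domain of its relatives. Iron that is not used is stored in ferritin, a shell of heavy chains with ferroxidase activity and light chains, or leaves the cell through ferroportin, the product of Slc40a1. Heme oxygenase 1 opens the heme ring and frees its iron, a step that macrophages carry out when they clear red cells. Adipose tissue macrophages are known to take up and release iron beside adipocytes.

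Translation and decay of several of these transcripts are controlled by iron regulatory proteins, which bind a hairpin called the iron-responsive element. It is known for holding back translation when it lies in a 5′ untranslated region and for protecting the transcript when it lies in a 3′ untranslated region, so that a level of RNA is not a level of protein for these genes. A search of the GENCODE M21 transcripts (GRCm38) for the letters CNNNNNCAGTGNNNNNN, in which both runs of 5 bases around the loop had to pair (G with T allowed) on the transcript strand, found the element in 4 of the 9 genes. They are shown because they divide the 9 genes into those under this known control and those without a match, with the 6 bases of the loop in capitals.
Fth1, 5′ untranslated region, chr19:9982734-9982758, plus strand: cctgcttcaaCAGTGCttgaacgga
Ftl1, 5′ untranslated region, chr7:45459781-45459805, minus strand: cttgcttcaaCAGTGTttgaacgga
Slc40a1, 5′ untranslated region, chr1:45925467-45925491, minus strand: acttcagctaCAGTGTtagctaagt
Tfrc, 3′ untranslated region, chr16:32631221-32631245, plus strand: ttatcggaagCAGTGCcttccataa
Tfrc, 3′ untranslated region, chr16:32631600-32631624, plus strand: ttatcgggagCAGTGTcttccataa
Tfrc, 3′ untranslated region, chr16:32631665-32631689, plus strand: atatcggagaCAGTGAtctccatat
Tfrc, 3′ untranslated region, chr16:32631712-32631736, plus strand: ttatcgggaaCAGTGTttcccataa
Of 21901 coding genes, 31 (0.142%) held such a match in a 5′ untranslated region and 129 (0.589%) in a 3′ untranslated region. Steap1, Steap2, Steap3, Steap4 and Hmox1 held none in either, which says only that these letters with this pairing were not found there.

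The libraries held 5759775 to 8598108 counts on genes, and levels are given in CPM, counts relative to library size after TMM scaling. Steap1, with 0 to 16 counts per library outside obese tumor-associated IWAT, carried wide counting errors. Libraries of the same group differed by more than sampling noise (chi-square per degree of freedom of at least 5.69). The labels do not name a batch. Adipocyte markers were abundant in every library (10 genes, summed level 2588 to 36009 CPM), and the 6 obese tumor-associated libraries differed widely in them. Mice 0, 2 and 4 of that group had the lowest adipocyte sums (4157, 10315 and 2588 CPM, against 12757 to 17009 CPM in the other 3) and the highest sums over 8 proliferation genes and 10 germline and embryonic genes that are near 0 in lean control IWAT (germline and embryonic sums of 441, 509 and 999.7 CPM, against 40.1 to 171 CPM in the other 3). These sums were 0.348 to 2.45 CPM in lean control, 0.622 to 9.09 in lean tumor-associated and 5.99 to 85.7 CPM in obese control IWAT. These 10 genes were picked in an earlier analysis of these data after their values were seen, so their counts of calls describe the list and test nothing. All 10 were called higher in obese tumor-associated than obese control IWAT, where 26.8% of all genes were. In obese against lean control IWAT 7 of 10 were (9.54% of all genes), and in lean tumor-associated against control IWAT none (3.27%). E0771 cells alone were not analysed here, and the part of tumor cell RNA in the levels of tumor-associated pads was not tested. Results that rest on mice 0, 2 and 4 are given with and without all 3, an omission that leaves libraries which also held these transcripts. In whole tissue, fewer cells of a type and less RNA per cell cannot be told apart.

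Among the control pads of obese mice, mice 1 and 3 stood apart in lymphocyte genes, with sums over 5 B cell genes of 473 and 439 CPM and over 5 T cell genes of 177 and 179 CPM. Tumor-associated mouse 3 of the obese group held 110 and 48.5 CPM, and the other libraries at most 52.8 and 31.5 CPM. Sums over 6 skeletal muscle genes were 2246 CPM in obese control mouse 1 and 228 CPM in obese tumor-associated mouse 8, and at most 40.5 CPM in the other libraries. Results that change without obese control mice 1 and 3 are given with and without both, and the part of lymphocytes and muscle in them was not tested. Sums over 4 hepatocyte genes varied widely within every group. They were 25.9 to 1985 CPM in lean control and 24.9 to 1599 CPM in lean tumor-associated IWAT. In obese mice they were 69.5 to 2658 CPM in control and 137 to 2976 CPM in tumor-associated IWAT. None of the 4 was called in any of the 5 comparisons. Their part in the levels of iron and heme genes was not tested.

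Per length of the main transcript, the 9 genes spanned a wide range in lean control IWAT. Ferritin was highest, with 623 ± 72.2 CPM per kilobase for Ftl1 and 465 ± 19.9 for Fth1 (SD, n = 5), followed by Steap4 with 149 ± 20.8. Hmox1 (12.1 ± 1.49), Tfrc (8.11 ± 1.82), Steap3 (6.85 ± 1.12) and Slc40a1 (5.32 ± 2.91 CPM per kilobase) stood close together, and Tfrc, Steap3 and Slc40a1 did not differ beyond their SDs. Steap2 (2.37 ± 0.465) and Steap1 (0.331 ± 0.234 CPM per kilobase) were lowest. In obese tumor-associated IWAT Steap1 (11.3 ± 11.1 CPM per kilobase, n = 6) and Steap2 (11.5 ± 10.2) reached about the same mean, with SDs near the size of the means. Ftl1 and Fth1 have many processed copies in the mouse genome whose reads the counting could split, so their levels are uncertain in scale.

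**Figure D1:**
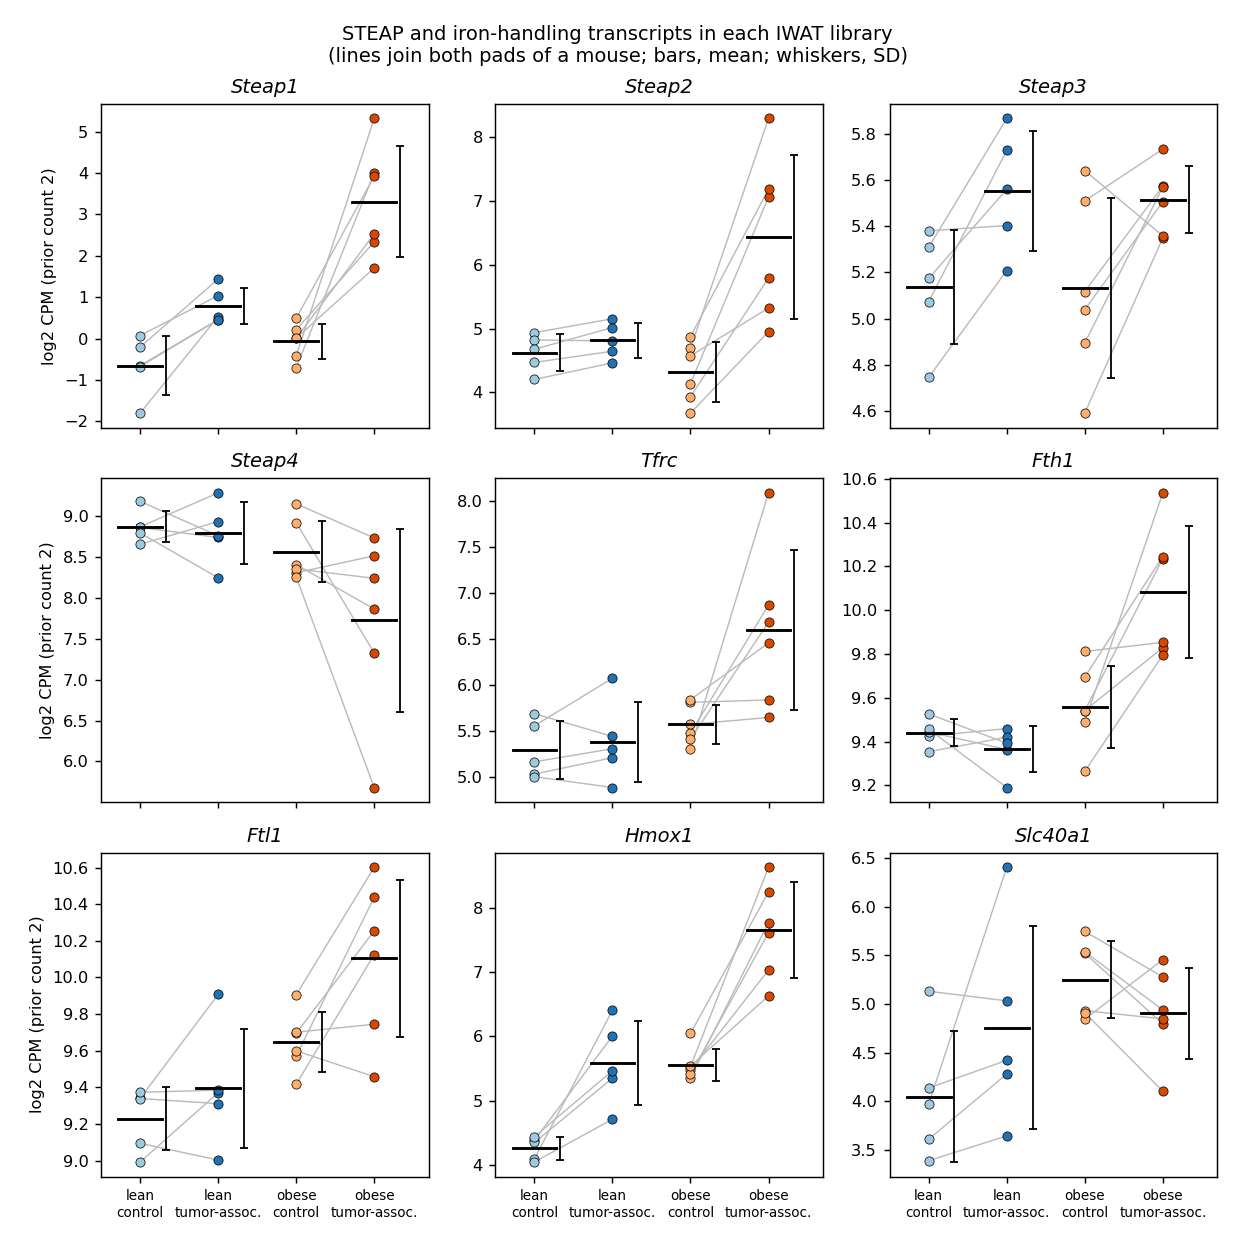
Level of each of the 9 genes in all 22 IWAT libraries, as log2 CPM with a prior count of 2 on the y axis and the 4 groups on the x axis (5 lean and 6 obese mice). Points are libraries, grey lines join both pads of a mouse, horizontal bars are means and whiskers SDs. Steap1, Steap2, Tfrc and Fth1 spread upward and Steap4 downward in obese tumor-associated IWAT, where mouse 4 was at the end of the range for each of these 5 genes.

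Steap1, which encodes the family member without its own NADPH-binding domain, was almost silent in control IWAT. In lean control IWAT the 5 libraries held 0.581, 0.350, 0.766, 0 and 0.339 CPM (mice 0, 2, 3, 6 and 9), which are 0 to 5 counts. In lean tumor-associated IWAT the same mice held 2.42, 1.09, 1.77, 1.16 and 1.08 CPM (7 to 16 counts). The groups did not overlap and Steap1 was higher in the tumor-associated pad of 5 of 5 mice, but the fitted log2 fold change of 1.79 (SE 0.71) missed the threshold of 0.05 for p-values adjusted over all tested genes (adjusted p = 0.189, and 0.108 to 0.249 in 4 other settings). This test rests on a gene that passed the filter through the group it was chosen by, so nothing is concluded from it. With the lean groups fitted alone Steap1 did not pass the filter and had no value. In obese control IWAT the lowest, median and highest libraries held 0.326, 0.717 and 1.12 CPM. In obese tumor-associated IWAT they held 2.97 (mouse 1), 10.2 and 39.6 CPM (mouse 4), and every library of this group was above every other library of the study. The level there was 13.9 ± 13.7 CPM (SD, n = 6) against 0.702 ± 0.283 in obese control IWAT, a log2 fold change of 4.25 (SE 0.58) that ranked 2 among the 14458 genes, the property for which Steap1 was chosen. Without mice 0, 2 and 4 the log2 fold change was 2.59.

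Steap2 lies next to Steap1 and encodes a full iron and copper reductase of the endosome. On GRCm38 it spans chr5:5664829-5694578 on the minus strand, and Steap1 begins 41.7 kb further on, at chr5:5736317-5749326 on the same strand. Steap4 lies 2211 kb beyond, at chr5:7960457-7982213 on the plus strand. Lean control IWAT held 30.3, 27.99, 25.3, 18.1 and 21.9 CPM of Steap2 (mice 0, 2, 3, 6 and 9), and lean tumor-associated IWAT held 35.3, 27.7, 32.1, 21.8 and 24.7 CPM. These groups overlapped, with a log2 fold change of 0.19 (SE 0.45, adjusted p = 0.962). In obese mice control IWAT ranged from 12.5 to 29.0 CPM around a median of 20.4, and tumor-associated IWAT from 30.7 (mouse 1) to 312 CPM (mouse 4) around a median of 94.0. The obese groups did not overlap, Steap2 was higher in the tumor-associated pad of 6 of 6 mice, and the log2 fold change was 2.54 (SE 0.43, adjusted p = 0.000103). It remained past the threshold without mice 0, 2 and 4, at a log2 fold change of 1.02 (adjusted p = 0.00396). The next genes within 200 kb of the pair that passed the filter, Cldn12 and Gtpbp10, were not called in any of the 5 comparisons, with log2 fold changes of -0.01 (SE 0.14) and -0.05 (SE 0.11) in obese mice.

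The promoters of this neighbouring pair are shown because both genes were highest in the same 3 libraries. They are RefSeq windows on GRCm38.p6 from 250 bases before to 50 after a start, and the table held windows for 7 of the 9 genes. Capitals mark matches on either strand. GGGCGG was searched as the GC box. The AP-1 site was searched by its TGANTCA letters. For the antioxidant response element the core TGACNNNGC was used, and for the hypoxia response element the core ACGTG. The letters TATAAA stood for the TATA box, and the CCAAT box was searched by the letters of its name.
Steap1, chr5:5749268-5749567, minus strand: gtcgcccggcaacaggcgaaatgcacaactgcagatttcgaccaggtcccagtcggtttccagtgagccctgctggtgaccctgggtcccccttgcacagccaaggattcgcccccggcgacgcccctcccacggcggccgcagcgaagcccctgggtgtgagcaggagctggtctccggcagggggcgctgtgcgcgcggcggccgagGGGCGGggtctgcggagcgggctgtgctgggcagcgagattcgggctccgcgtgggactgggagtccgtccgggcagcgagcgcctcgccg
Steap2, outermost of 3 starts, chr5:5694519-5694818, minus strand: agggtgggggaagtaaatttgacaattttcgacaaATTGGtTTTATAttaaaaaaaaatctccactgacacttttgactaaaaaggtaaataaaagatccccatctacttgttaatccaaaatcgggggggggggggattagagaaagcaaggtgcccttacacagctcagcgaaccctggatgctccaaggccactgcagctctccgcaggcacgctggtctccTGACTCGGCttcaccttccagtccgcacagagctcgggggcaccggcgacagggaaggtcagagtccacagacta
Steap1 held a single GC box, as did 35.7% of all 32851 windows. The outermost Steap2 window held no GC box but an antioxidant core (12.4% of all windows), a TATA box (13.6%) and a CCAAT box (37.4%), both of these on the other strand. The middle Steap2 window held 1 GC box, and the innermost, which overlaps it, held 3 GC boxes and a hypoxia core (19.6%). The box of the middle window lies in the overlap and is 1 of these 3. No AP-1 letters, found in 7.81% of windows, were in any window of either gene. Thus the GC box was common to the Steap1 window and the middle and innermost Steap2 windows. No motif searched was common to the Steap1 window and the outermost Steap2 window. A match is a description of letters, not of a bound site.

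Steap3, the ferrireductase of the transferrin cycle, changed little in any comparison. Lean control IWAT held 39.4, 33.4, 35.8, 26.6 and 41.4 CPM and lean tumor-associated IWAT 58.0, 52.7, 46.9, 36.7 and 42.01 CPM (mice 0, 2, 3, 6 and 9), higher in 5 of 5 mice, with a log2 fold change of 0.42 (SE 0.17, adjusted p = 0.206). Obese control IWAT ranged from 23.8 to 49.6 CPM (median 33.5) and obese tumor-associated IWAT from 40.5 to 52.9 CPM (median 46.2). These ranges overlapped, 5 of 6 mice were higher in the tumor-associated pad and mouse 4 was lower, and the log2 fold change of 0.35 (SE 0.16) missed the threshold (adjusted p = 0.0634). With the mouse as a block it was 0.38 and passed (adjusted p = 0.0262).

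Steap4, the adipocyte-rich member that is known to respond to feeding and inflammation, was the only one of the 4 whose level was lower in obese tumor-associated than in obese control IWAT on average. It held 464, 467, 579, 443 and 403 CPM in lean control IWAT and 427, 623, 433, 303 and 488 CPM in lean tumor-associated IWAT (mice 0, 2, 3, 6 and 9), a log2 fold change of -0.05 (SE 0.35, adjusted p = 0.993). Obese control IWAT ranged from 305 to 567 CPM (median 333), and obese tumor-associated IWAT from 51.0 (mouse 4) to 425 CPM (mouse 8) around a median of 267. Mice 4 and 0, the lowest in Steap4, were also the lowest in adipocyte markers. The log2 fold change in obese mice was -0.61 (SE 0.32, adjusted p = 0.111) without a block and -0.81 (adjusted p = 0.0428) with the mouse as a block. Obese tumor-associated IWAT was lower than lean tumor-associated IWAT by a log2 fold change of -0.83 (SE 0.33, adjusted p = 0.0458). That call was lost without mice 0, 2 and 4 (log2 fold change -0.32, adjusted p = 0.298) and in 14 of 22 fits that each left out 1 library, where the adjusted p ranged from 0.0162 to 0.110.

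Tfrc encodes the receptor through which transferrin iron enters most cells and which dividing cells carry in quantity. In lean mice control IWAT held 32.5, 46.9, 35.7, 51.4 and 31.9 CPM and tumor-associated IWAT 36.8, 67.1, 39.4, 43.2 and 29.3 CPM (mice 0, 2, 3, 6 and 9), higher in 3 of 5 mice, with a log2 fold change of 0.12 (SE 0.34, adjusted p = 0.973). In obese mice control IWAT was tight, from 39.4 to 57.1 CPM (median 45.9), while tumor-associated IWAT reached from 49.9 (mouse 1) to 272 CPM (mouse 4) around a median of 95.1. The groups overlapped at the low end, where mice 1 and 3 differed by 0.07 and 0.03 on the log2 scale between their own pads. The log2 fold change was 1.26 (SE 0.31, adjusted p = 0.00215). Without mice 0, 2 and 4 it was 0.43 (adjusted p = 0.144), so the call rested on these libraries. In the 6 tumor-associated libraries of obese mice the order of Tfrc from highest to lowest was mice 4, 0, 2, 8, 3 and 1, the same order as the summed proliferation genes (2149, 1509, 1074, 903, 861 and 552 CPM) and as Steap1. The germline and embryonic sums had nearly this order (mice 4, 2, 0, 3, 8 and 1). The part of dividing cells in the level of Tfrc was not tested.

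Fth1, the ferritin heavy chain, was close to the same level in both pads of lean mice. It held 687, 654, 696, 702 and 737 CPM in lean control IWAT and 704, 685, 658, 584 and 672 CPM in lean tumor-associated IWAT (mice 0, 2, 3, 6 and 9), a log2 fold change of -0.07 (SE 0.13, adjusted p = 0.933). Obese control IWAT ranged from 614 to 898 CPM (median 745) and obese tumor-associated IWAT from 888 to 1484 CPM (median 1065). The obese ranges touched only at mouse 8 of the control group and mouse 3 of the tumor-associated group, and Fth1 was higher in the tumor-associated pad of 6 of 6 mice. The log2 fold change was 0.54 (SE 0.12, adjusted p = 0.000916), and 0.25 (adjusted p = 0.0491) without mice 0, 2 and 4.

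Ftl1, the ferritin light chain, rose by a similar amount in obese mice, but its order among the tumor-associated libraries was another one. Lean control IWAT held 648, 509, 647, 547 and 663 CPM and lean tumor-associated IWAT 960.0, 662, 635, 513 and 668 CPM (mice 0, 2, 3, 6 and 9), with a log2 fold change of 0.19 (SE 0.18, adjusted p = 0.767). Obese control IWAT ranged from 683 to 959 CPM (median 802) and obese tumor-associated IWAT from 703 (mouse 4) to 1553 CPM (mouse 8) around a median of 1169. The log2 fold change in obese mice was 0.50 (SE 0.17, adjusted p = 0.0167), higher in 5 of 6 mice and lower in mouse 4. Without tumor-associated mouse 8 it was 0.39 and just missed the threshold (adjusted p = 0.0501), and without obese control mice 1 and 3 it was 0.41 (adjusted p = 0.0779). Between their own pads, mice 0, 1, 2, 3 and 8 were higher in both ferritin genes. On the log2 scale the differences of these mice were 0.56, 0.87, 0.04, 0.71 and 0.70 for Ftl1. For Fth1 they were 0.69, 0.29, 0.55, 0.53 and 0.04. Without tumor-associated mice 0, 2 and 4 the log2 fold change of Ftl1 was 0.74 (adjusted p = 0.00189), larger than in all mice, whereas that of Fth1 was smaller.

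The ratio of Ftl1 to Fth1 counts within a library, which does not depend on library size, showed this divergence. It was 1.07 ± 0.0456 (SD, n = 6, range 1.00 to 1.11) in obese control IWAT and 1.11 ± 0.468 in obese tumor-associated IWAT, where mice 0, 1, 2, 3, 4 and 8 stood at 1.01, 1.53, 0.707, 1.26, 0.474 and 1.68. Mice 1, 3 and 8 were thus above every obese control library and mice 2 and 4 below every one, while the means were close. In lean mice the ratio was 0.866 ± 0.0814 (SD, n = 5) in control and 1.03 ± 0.190 in tumor-associated IWAT. The summed macrophage markers of the obese tumor-associated libraries were lowest in mice 4 and 2 as well (1911 and 2702 CPM, against 4982 to 5328 CPM in the others), and the part of these markers in the ratio was not tested.

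**Figure D2:**
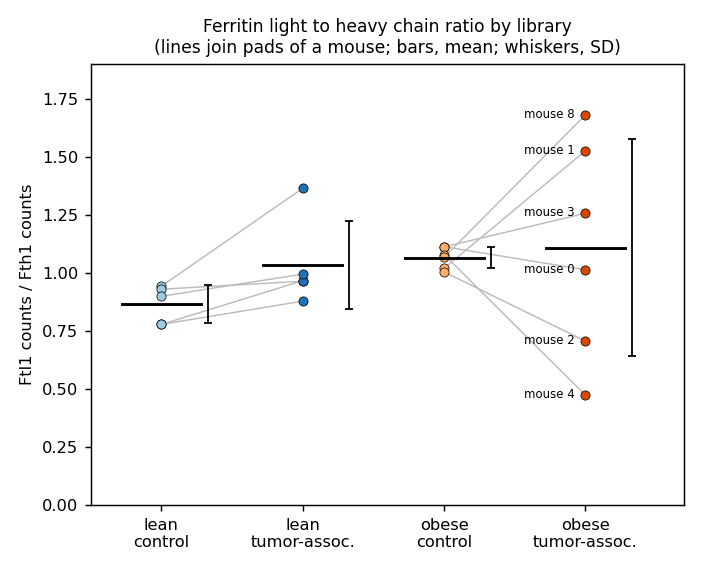
Ratio of Ftl1 to Fth1 counts (y axis, no unit, from 0) in each library of the 4 groups (x axis; 5 lean and 6 obese mice). Points are libraries, grey lines join both pads of a mouse, bars are means and whiskers SDs. Obese control libraries lie between 1.00 and 1.11, and the obese tumor-associated libraries fan out from 0.474 (mouse 4) to 1.68 (mouse 8).

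Hmox1, the inducible heme oxygenase, was the gene of the 9 called in the most comparisons, 4 of 5. It held 20.6, 16.8, 20.1, 16.2 and 21.4 CPM in lean control IWAT and 63.9, 84.6, 40.5, 25.9 and 43.9 CPM in lean tumor-associated IWAT (mice 0, 2, 3, 6 and 9). The groups did not overlap, 5 of 5 mice were higher, and the log2 fold change was 1.44 (SE 0.32, adjusted p = 0.0146). Leaving out tumor-associated mouse 0 or mouse 2 ended this call (log2 fold changes 1.33 and 1.18, adjusted p = 0.0534 and 0.0794). Hmox1 is also in a gene cluster that the study defined on these samples, so its place there is not independent evidence. Obese control IWAT ranged from 40.5 to 65.7 CPM (median 45.1) and lay wholly above lean control IWAT, with a log2 fold change of 1.32 (SE 0.31, adjusted p = 0.00652). Obese tumor-associated IWAT ranged from 98.8 (mouse 4) to 397 CPM (mouse 0) around a median of 207, above all other libraries, and the log2 fold change against the control pads was 2.24 (SE 0.29, adjusted p = 1.21e-05). It was 2.33 without mice 0, 2 and 4.

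Macrophage markers rose beside Hmox1 between pads and less clearly between diets. Of 12 macrophage genes, 9 were called higher in lean tumor-associated than control IWAT, against 3.27% of all genes (summed levels 1874 to 4023 against 861 to 1745 CPM). In obese mice 10 were, against 26.8% (1911 to 5328 against 1311 to 1769 CPM). Between control pads of obese and lean mice, where Hmox1 also rose, 2 of 12 were called higher, against 9.54%, and the sums overlapped. Between tumor-associated pads, where Hmox1 was also called, 4 of 12 were called higher, against 24.7%. In obese tumor-associated IWAT mouse 4 was lowest in both Hmox1 and macrophage markers. The part of macrophages in the rise of Hmox1 was not tested. Of 8 erythroid genes 1 passed the filter, and it was not called in any of the 5 comparisons. The hemoglobin genes Hba-a1, Hba-a2, Hbb-b1 and Hbb-b2 were listed at 0 in every library, but these are near-identical copies whose shared reads the counting could drop, so that red cells were not measured by them. Alas2, the erythroid enzyme of heme synthesis, held a mean of 10.4 to 28.4 CPM in the 4 groups, with up to 84.7 CPM in a lean tumor-associated library, and was not called in any of the 5 comparisons.

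Slc40a1 encodes ferroportin, the only known iron exporter of mammalian cells, and it was called in none of the 5 comparisons. Lean control IWAT held 15.4, 17.3, 11.9, 10.2 and 34.8 CPM and lean tumor-associated IWAT 84.4, 21.1, 19.2, 12.2 and 32.4 CPM (mice 0, 2, 3, 6 and 9). Single libraries stood far from the rest in both, and the log2 fold change of 0.92 (SE 0.42, adjusted p = 0.280) was 0.23 without tumor-associated mouse 0. Obese control IWAT ranged from 28.4 to 53.4 CPM (median 37.9) and obese tumor-associated IWAT from 16.9 (mouse 4) to 43.6 CPM (median 29.4), with 5 of 6 mice lower and a log2 fold change of -0.33 (SE 0.38, adjusted p = 0.468). Between control pads Slc40a1 was higher in obese mice by a log2 fold change of 1.12 (SE 0.41) that missed the threshold (adjusted p = 0.0627), and passed it in 4 of 22 fits that left out 1 library each (lean control mouse 9, lean tumor-associated mouse 0 or 6, or obese tumor-associated mouse 4, adjusted p = 0.0196 to 0.0470).

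**Figure D3:**
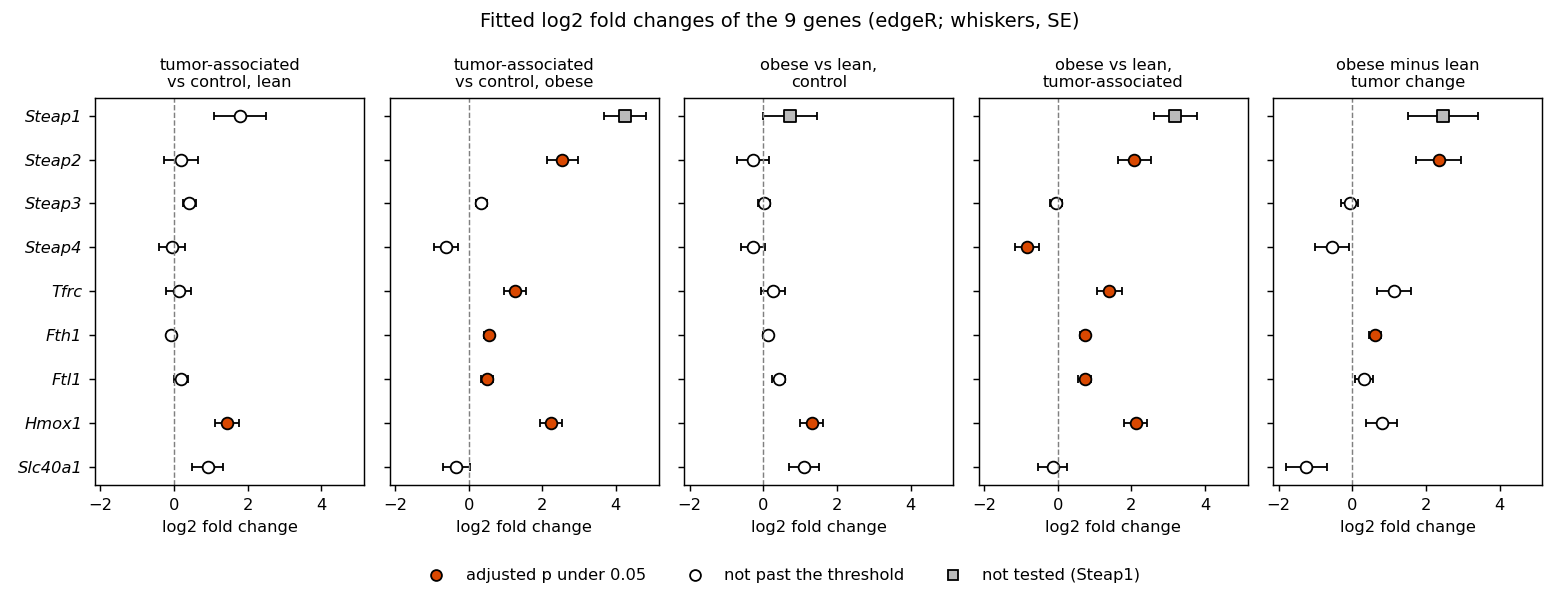
Fitted log2 fold changes (x axes) of the 9 genes (y axis) in the 5 comparisons, from 1 edgeR fit to all 22 libraries. Whiskers are SEs, orange points passed an adjusted p of 0.05, white points did not, and grey squares mark Steap1 where it was not tested. Most orange points are in the panels that use obese tumor-associated IWAT, and Hmox1 is the only gene past the threshold in lean mice (log2 fold change 1.44).

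The members were chosen with earlier results of these data known, so their counts of calls are not those of an unselected set. Counted over comparisons, the tumor-bearing side of lean mice had few calls among these genes. Steap1 is counted there, although it passed the filter only through obese tumor-associated IWAT. One of 9 (Hmox1) was called higher and none lower in lean tumor-associated against control IWAT, where 3.27% of all tested genes were called higher and 0.913% lower. This split, 473 genes higher and 132 lower, was 382 and 199 with upper-quartile scaling and 622 and 291 with DESeq2. With 1 library left out the 605 calls ranged from 183 (without lean tumor-associated mouse 2) to 952 (without obese tumor-associated mouse 4). In obese mice 5 of 8 tested members (Steap2, Tfrc, Fth1, Ftl1 and Hmox1) were called higher and none lower, against 26.8% and 27.7% of all genes, and 4 were called without mice 0, 2 and 4 and 4 without control mice 1 and 3. With the mouse as a block 7 were called, among them Steap3 higher and Steap4 lower. Between control pads 1 of 8 (Hmox1) was called higher in obese mice and none lower, against 9.54% and 7.53%. The 1380 genes higher and 1088 lower became 1068 and 1446 with upper-quartile scaling. Ftl1 also did not overlap between these groups but missed the threshold (log2 fold change 0.42, SE 0.18, adjusted p = 0.107). It was called, as was Slc40a1, when these 2 groups were fitted alone.

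Between tumor-associated pads, 5 of 8 were called higher in obese mice and 1 (Steap4) lower, where 24.7% and 22.4% of all genes were. The 3569 genes higher and 3233 lower became 2923 and 3943 with upper-quartile scaling. The log2 fold changes were 2.07 (SE 0.45) for Steap2, 1.40 (SE 0.33) for Tfrc, 0.74 (SE 0.13) for Fth1, 0.73 (SE 0.18) for Ftl1 and 2.12 (SE 0.31) for Hmox1. Without mice 0, 2 and 4 only Fth1 (0.46), Ftl1 (0.98) and Hmox1 (2.22) stayed past the threshold, while Steap2 fell to 0.57 (adjusted p = 0.0953) and Tfrc to 0.59 (adjusted p = 0.0635). These comparisons share libraries with those between pads, so they are not separate evidence. Steap1, not tested here, was higher in obese tumor-associated IWAT by 3.19 (SE 0.58) on the log2 scale, and by 1.54 without these mice.

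The test of whether the tumor change differed between obese and lean mice called Steap2 (difference 2.35 on the log2 scale, SE 0.61, adjusted p = 0.0463) and Fth1 (0.62, SE 0.18, adjusted p = 0.0486) higher, 2 of 8 members, with 2.58% of all genes called higher and 2.34% lower. Both were close to the threshold. The 711 calls over all genes ranged from 1 (without lean tumor-associated mouse 0 or obese tumor-associated mouse 0) to 3568 (without obese tumor-associated mouse 1), and moved by over 1.5 times in 19 of 22 fits that left out 1 library, so that these percentages depend on which libraries enter the fit. Steap2 stayed past it in 6 and Fth1 in 5 of 22 fits that left out 1 library each, with the adjusted p reaching 0.0908 and 0.0922. With the mouse as a block Steap2 passed and Fth1 did not (0.60, adjusted p = 0.0662), and without obese tumor-associated mice 0, 2 and 4 neither did (0.85, adjusted p = 0.204, and 0.34, adjusted p = 0.190). Without obese control mice 1 and 3 the differences were 2.14 (adjusted p = 0.0557) and 0.55 (adjusted p = 0.0617). Steap2 differed between the pads of lean mice by at most 0.34 and of obese mice by at least 0.75 on the log2 scale, ranges that did not overlap. For Hmox1 the difference of 0.80 (SE 0.43, adjusted p = 0.192) and for Slc40a1 of -1.25 (SE 0.56, adjusted p = 0.130) did not pass.

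**Figure D4:**
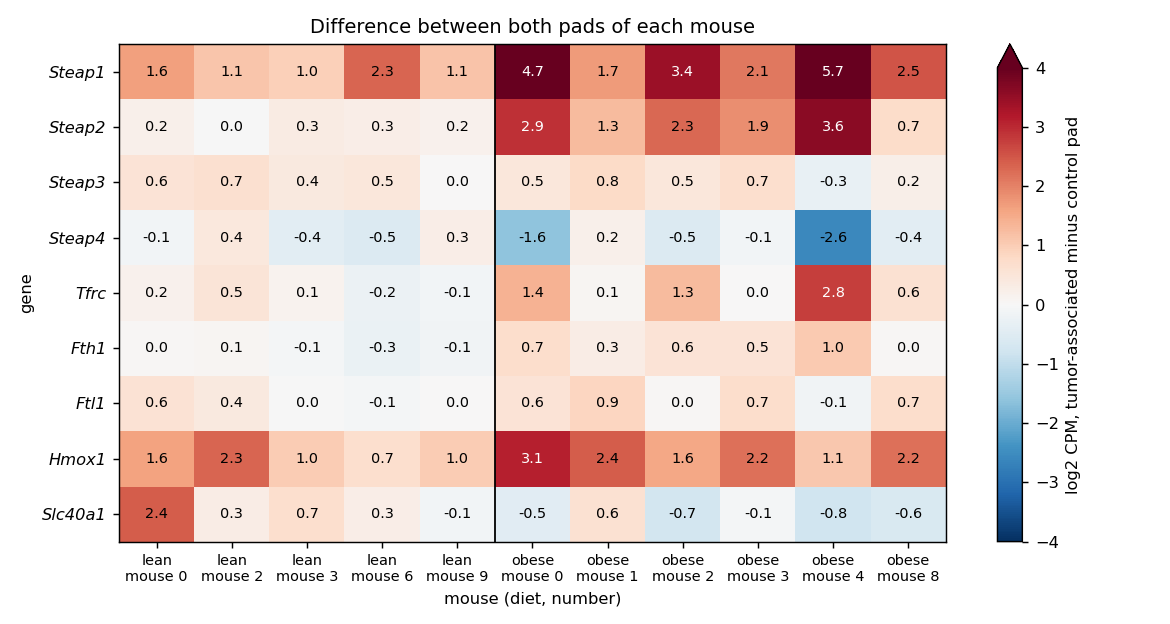
Difference in log2 CPM (prior count 2) between the tumor-associated and the control pad of each mouse, with 9 genes in rows and 5 lean and 6 obese mice in columns. Red marks a higher and blue a lower level in the tumor-associated pad, and the color scale ends at 4, so that Steap1 of obese mice 0 and 4 (4.70 and 5.74) is beyond it. Steap1 and Hmox1 are positive in all 11 mice, and obese mice 0 and 4 have the strongest red in Steap1 and Steap2 and the strongest blue in Steap4.

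The members fell into different orders across the 6 obese tumor-associated libraries. Mice 4, 2 and 0 held the 3 highest levels of Steap1, Steap2, Tfrc and Fth1 and the 3 lowest of Steap4. Mouse 4 was lowest in Ftl1, Hmox1, Slc40a1 and Steap4 and had the lowest sums of macrophage, adipocyte, fibroblast and endothelial markers and the highest of germline and embryonic genes (999.7 CPM). Mouse 0 held the highest Hmox1 (397 CPM) beside the 2nd highest Steap1 (15.7 CPM) and was 3rd in Ftl1 (1222 CPM). The part of the cell makeup in these orders was not tested.

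As a description over all 22 libraries, which share groups and mice, Steap1 and Steap2 had a Pearson r of 0.91 in log2 CPM, and 0.86 after each group's mean was taken off. Ftl1 and Hmox1 had an r of 0.87 (0.79 after the group means). The genes most like Steap1 were Wsb1 (r = 0.96), Smox, a spermine oxidase, Tpd52, Myof and Ywhaz. After the group means were taken off, these 5 had an r of 0.75 to 0.80 and ranked 178 to 576, so that their likeness rested in part on the differences between groups for which Steap1 was chosen. Those most like Steap2 were Slc30a4, a zinc transporter, Atf6, a sensor of unfolded proteins, and Adss (r = 0.96 each, and 0.90 to 0.92 after the group means). Tfrc was most like Pphln1, the nuclear import receptor gene Kpnb1 and the translation initiation factor gene Eif3a (0.95 to 0.96), and Fth1 most like Esd, Glud1 and Slc9b1 (0.96 each).

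Ftl1 was most like Slc11a1, a metal transporter of macrophage phagosomes, and the lysosomal enzyme genes Lipa and Ctsb (0.91 to 0.92). Hmox1 was most like Lgmn, which encodes the lysosomal protease legumain, and Cndp2 and Ugt1a7c (0.97 to 0.98). Steap4 was most like the receptor genes Mst1r and Ntrk2 and the gene Olfml1 (0.95 to 0.96). For Steap3 (Sepn1, Bmp1 and Fam219a, 0.79 to 0.84) and Slc40a1 (4833419F23Rik, Pgm2l1 and 4632428N05Rik, 0.78 to 0.80) the likeness was lower.

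The rest of the pathway was read from a list of 85 other iron and heme genes, of which 81 were in the table and 80 were tested. In lean mice 3 were called higher and 2 lower in tumor-associated IWAT. That is 3.75% and 2.5% of the 80, against 3.27% and 0.913% of all genes. In obese mice 17 were called higher and 23 lower. These are 21.2% and 28.8% of the 80, close to the 26.8% and 27.7% over all genes. The list had a median log2 fold change of -0.07 in the lean and -0.08 in the obese comparison, against 0.01 and -0.02 over all genes. Without mice 0, 2 and 4 the obese counts were 14 higher and 13 lower, and without obese control mice 1 and 3 they were 15 and 26, with Pcbp4, Abcb6, Uros, Fbxl5 and Fam132b no longer called. The 5 lean calls (Slc11a1, Hp, Bola3, Aco1 and Bach1) passed in 7 to 18 of 22 fits that left out 1 library. The 5 calls for the difference between diets (Slc39a14, Pcbp1, Pcbp2, Heph and Srxn1) passed in 4 to 9 of 22. They were 4 higher and 1 lower, 5% and 1.25% of the 80, against 2.58% and 2.34% of all genes. The shares for lean mice and for the difference also stand beside the counts by role below.

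Of 8 genes of the transferrin cycle and ferrous uptake, 3 rose and 2 fell in obese tumor-associated IWAT. Over all genes 26.8% were called higher and 27.7% lower in that comparison, shares that stand beside each count by role in obese mice. The rises were Slc39a14, the ZIP14 metal importer (log2 fold change 1.53, SE 0.23), Slc11a1 (1.11, SE 0.22) and Slc11a2, the divalent metal transporter DMT1 (0.48, SE 0.14). The falls were Trf, which encodes transferrin (-0.90, SE 0.32), and Tfr2, the second transferrin receptor gene (-1.12, SE 0.40). Trf, Tfr2 and Slc11a2 did not pass without mice 0, 2 and 4. In lean mice only Slc11a1 was called (0.88, SE 0.24). The tumor change of Slc39a14 differed between diets (1.21, SE 0.34, adjusted p = 0.0479), but did not pass without mice 0, 2 and 4 (0.65, adjusted p = 0.252), as was true of Pcbp1, Pcbp2, Heph and Srxn1. Trf fell on average from 1279 to 686 CPM between the pads of obese mice.

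Among 7 tested genes of storage and cytosolic handling, the iron chaperone genes Pcbp1 (0.67, SE 0.11), Pcbp2 (0.65, SE 0.11) and Pcbp4, together with Bola2, rose in obese mice and Pcbp3 fell, of which Pcbp1 and Pcbp2 alone passed without mice 0, 2 and 4. None was called in lean mice. In obese mice the tumor change of Pcbp1 (by 0.61, SE 0.16) and Pcbp2 (by 0.65, SE 0.17) exceeded that of lean mice (adjusted p = 0.0463 each). Ncoa4, the receptor that carries ferritin to lysosomes, was not called (-0.34, SE 0.16, adjusted p = 0.0749). Of 3 ferroxidase genes that work with ferroportin, Heph, which encodes hephaestin, fell in obese mice from a mean of 210.3 to 59.4 CPM (log2 fold change -1.82, SE 0.32, and -1.29 without mice 0, 2 and 4). Its tumor change was lower in obese than in lean mice (-1.71, SE 0.46, adjusted p = 0.0463). With the mouse as a block this call was lost, as no gene of the list was called lower for the difference. Cp (ceruloplasmin) was lower in obese than in lean control IWAT (-1.01, SE 0.30, adjusted p = 0.0245, and 0.0884 without obese control mice 1 and 3).

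Of 8 genes of heme uptake and breakdown, Hp, the hemoglobin scavenger haptoglobin, was called in lean mice (1.70, SE 0.44, adjusted p = 0.0302), and Blvrb, a biliverdin reductase downstream of heme oxygenase, in obese mice (0.73, SE 0.12). Slc48a1, the lysosomal heme exporter, fell (-0.58, SE 0.15), and Abcb6 rose (0.47, SE 0.18) but not without mice 0, 2 and 4. Cd163, the hemoglobin receptor of macrophages, had log2 fold changes of 1.11 (SE 0.38) in lean and 0.81 (SE 0.34) in obese mice that missed the threshold (adjusted p = 0.115 and 0.0504). Of 10 genes of heme synthesis, Alas1, the first enzyme of the pathway (-0.70, SE 0.17), Uros and Fech fell in obese mice and Cpox rose, and none of these 4 passed without mice 0, 2 and 4.

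Of 15 genes of mitochondrial iron and iron-sulfur clusters, 7 were called lower and 1 higher in obese tumor-associated IWAT (27.7% and 26.8% of all genes). Their median log2 fold change was -0.21 in obese and -0.31 in lean mice, and none was called for a difference between diets. The scaffold gene Iscu fell by 0.94 on the log2 scale (SE 0.19), and Isca1, Isca2, Nfs1, Bola3, Cisd1 and Abcb8 fell by less, and of the 7 Bola3 and Abcb8 did not pass without mice 0, 2 and 4. Slc25a37, which encodes the mitochondrial iron importer mitoferrin 1, rose (1.23, SE 0.20). In lean mice Bola3 alone was called (-0.64, SE 0.15, adjusted p = 0.0182). Adipocyte markers fell in the obese comparison, with 9 of 10 called lower (summed levels 2588 to 17009 CPM in tumor-associated against 20237 to 36009 CPM in control IWAT). In lean mice none was called, but their median log2 fold change was -0.56. The lean sums were 12669 to 21279 CPM in tumor-associated against 19929 to 25178 CPM in control IWAT. The part of adipocyte markers in the falls of mitochondrial genes was not tested.

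**Figure D5:**
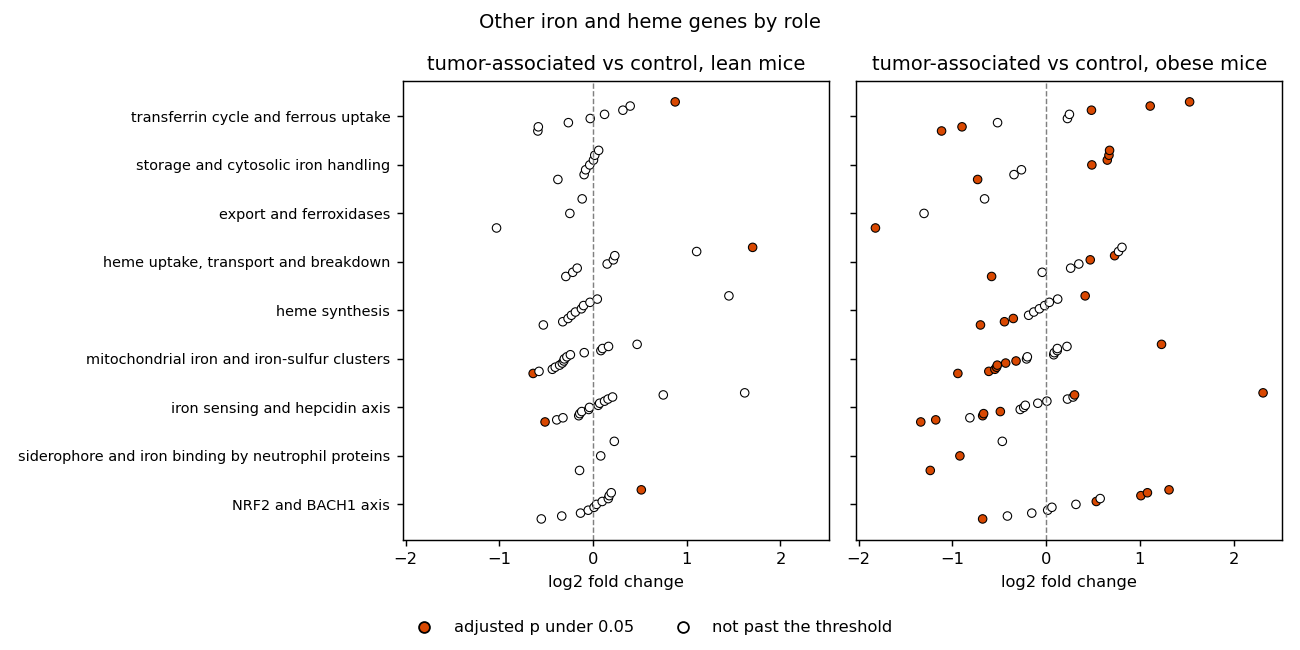
Log2 fold changes (x axes) of 80 other iron and heme genes in tumor-associated against control IWAT of lean mice (left) and obese mice (right), grouped by role on the y axis. Each point is a gene, placed within its role in order of its value, and orange points passed an adjusted p of 0.05 (5 in lean and 40 in obese mice). The NRF2 and BACH1 axis has 4 orange points above 0 in obese and 1 in lean mice, and the mitochondrial genes have a median below 0 in both panels (-0.21 in obese and -0.31 in lean mice).

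Among 15 tested genes of iron sensing and the hepcidin axis, Aco1, which encodes iron regulatory protein 1, fell in both lean (-0.51, SE 0.13, adjusted p = 0.0280) and obese mice (-0.49, SE 0.12, adjusted p = 0.00192), though not in obese mice without mice 0, 2 and 4 (-0.32, adjusted p = 0.0757), and was lower in obese than in lean control IWAT (-0.72, SE 0.12). Ireb2, the gene of iron regulatory protein 2, was not called in any of the 5 comparisons, and Fbxl5, the iron-sensing subunit that targets it for breakdown, rose in obese mice (0.30, SE 0.10). Bmp6, the ligand that induces hepcidin in liver, fell in obese tumor-associated IWAT (-1.18, SE 0.31), as did Smad6, Bmp2 and Hfe, the last 2 not without mice 0, 2 and 4. Hamp, the hepcidin gene, held a mean of 3.10 to 6.15 CPM in the 4 groups and was not called. Hepatocyte genes varied widely between libraries, and their part in the levels of Hamp, Hp, Trf and Cp was not tested. Fam132b, an older symbol of the erythroferrone gene, rose from a mean of 0.428 to 2.32 CPM in obese mice (2.31, SE 0.81, adjusted p = 0.0214), but not without mice 0, 2 and 4 (1.28, adjusted p = 0.335). Of the siderophore and lactoferrin genes, Lcn2 (-0.92, SE 0.29) and Slc22a17 (-1.24, SE 0.26) fell in obese mice, Lcn2 not without mice 0, 2 and 4, and Ltf was not called. In this comparison 7 of 8 luminal and 3 of 4 basal epithelial genes were called lower, against 27.7% of all genes. Sums over 8 neutrophil genes were 15.0 to 28.4 CPM in tumor-associated against 6.94 to 19.7 CPM in control IWAT. The part of epithelial cells and neutrophils in Lcn2, Slc22a17, Ltf and Cp was not tested.

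Heme and oxidative stress act on Hmox1 through the activator NRF2 and the repressor BACH1. Of 11 genes of this axis, Nfe2l2, which encodes NRF2 (0.54, SE 0.08, adjusted p = 2.92e-05), Bach1 (1.01, SE 0.12, adjusted p = 3.87e-06), the sulfiredoxin gene Srxn1 (1.31, SE 0.21) and the thioredoxin reductase gene Txnrd1 (1.08, SE 0.20) rose in obese tumor-associated IWAT, with or without mice 0, 2 and 4. Gpx4, which protects membranes from lipid peroxides, fell (-0.68, SE 0.15). The NRF2 target Nqo1 was not called (0.06, SE 0.20), nor were Gclm and Gclc. In lean mice Bach1 alone was called (0.52, SE 0.13, adjusted p = 0.0266). The tumor change of Srxn1 was larger in obese mice (1.30, SE 0.31, adjusted p = 0.0396).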

How the data were processed

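RNA was sequenced after ribosomal depletion from 22 IWAT samples of 11 mice. Per the study's methods, the authors cleaned the reads with prinseq, aligned them with STAR 2.4.0f to mm10 and used HTSeq for counting, and they deposited raw counts per gene without normalization. The strand setting and annotation are not given in the sources used here. The table has 5 lines that name no gene (57.0% to 65.9% per library), which were left out.

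The counts were tested with edgeR 4.0.16 in R 4.3.3: a quasi-likelihood fit to 4 groups, TMM factors, the default filter by group, and Benjamini-Hochberg adjustment over 14458 genes with a threshold of 0.05. DESeq2 1.42.0, other filters and scaling, and left-out libraries were alternatives. The code was tested on simulated data. Both pads of a mouse are paired by design. Their deviations from the group means had a median correlation of 0.51 in lean (5 of 5 pairs over 0.1) and 0.17 in obese mice (4 of 6). Lengths are of the longest APPRIS principal transcript of GENCODE M21. Genes named beside the 9 are those most like each by Pearson r and genes of the iron list. The members and lists were chosen with earlier results of these data known.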

Additional observations from a re-analysis of the deposited data

Results flagged for a closer look

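In 34 sets of 5 or 6 libraries (9 genes in 4 groups, without Steap1 in obese mice), 4 libraries stood farther from their group than Dixon's 95% limit allows, where chance alone marks about 1 in 20 sets. Tfrc was 272 CPM in obese tumor-associated mouse 4, with the next at 117 CPM. Hmox1 was 65.7 CPM in obese control mouse 8, with the next at 46.2 CPM. Slc40a1 was 34.8 CPM in lean control mouse 9, with the next at 17.3 CPM, and 84.4 CPM in lean tumor-associated mouse 0, with the next at 32.4 CPM. The 2 results whose tumor change differed between diets were Steap2 (obese minus lean difference 2.35 on the log2 scale) and Fth1 (0.62), by the interaction test of the edgeR fit.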

How the results depend on the processing

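Of 15 member calls 7 held under every alternative run: Steap2, Fth1 and Hmox1 in obese mice, Hmox1 between control pads, and Fth1, Ftl1 and Hmox1 between tumor-associated pads. The other 8 were lost in at least 1 setting. Members called between control pads were 2 with DESeq2 and 3 with the 2 groups fitted alone (1 in the report). Between tumor-associated pads they were 3 without obese tumor-associated mice 0, 2 and 4, an omission chosen after seeing the data. For the difference they were 0 with no filter, 1 with the mouse as a replicate block, 0 without these mice and 0 without obese control mice 1 and 3, also chosen after seeing the data. In obese mice the block gave 7 (5 in the report). The block changed no other call of a member than those given in the report, and could not be fitted between diets. Of the iron list it called 2 higher and 2 lower in lean mice (3 and 2 without it). In obese mice it called 17 higher and 26 lower (17 and 23 without it), and in the difference 4 and 0 (4 and 1 without it). With each library left out in turn, members called ranged from 0 to 1 in lean mice, 5 to 6 in obese mice, 1 to 2 between control pads, 5 to 6 between tumor-associated pads and 0 to 3 for the difference. In the edgeR fits with 0 members called, 1 to 5 had an unadjusted p under 0.05.

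Signs turned only for values that were not called. Steap3 between control pads was -0.048 with upper-quartile scaling and -0.0068 with at least 10 counts in every library, a filter that leaves no value for Steap1. Slc40a1 between tumor-associated pads was 0.018 without mice 0, 2 and 4. With 1 library left out, Slc40a1 between tumor-associated pads ranged from -0.35 to 0.54, Steap3 between control pads from -0.093 to 0.10, between tumor-associated pads from -0.13 to 0.031 and in the difference from -0.16 to 0.043, and in lean mice Steap4 from -0.21 to 0.064 and Tfrc from -0.10 to 0.23.

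Over all genes the difference had 711 calls, against 1 to 3568 with 1 library left out, 18 with no filter, 10 without mice 0, 2 and 4 and 2364 with DESeq2, and in lean mice 605, against 183 to 952 with 1 library left out, 913 with DESeq2 and 1437 with the 2 groups alone. Without these mice 4849 were called in obese mice (7882 with them) and 4432 between tumor-associated pads (6802). Of the iron list, DESeq2 called 8 higher and 4 lower in the difference and 3 higher and 5 lower in lean mice. Of 29 likeness values 14 stayed within the spread under Spearman rho and 18 with group means removed. The causes were not tested. Depth limits Steap1 in control IWAT, where libraries held 0 to 9 counts.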
